A study of Arabidopsis thaliana with 8 samples.

Results

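The 8 Arabidopsis genes LHCB1.1 (AT1G29920), LHCB1.2 (AT1G29910), LHCB1.3 (AT1G29930), LHCB1.4 (AT2G34430), LHCB1.5 (AT2G34420), LHCB2.1 (AT2G05100), LHCB2.2 (AT2G05070) and LHCB2.3 (AT3G27690) encode the LHCB1 and LHCB2 proteins of the major light-harvesting complex of photosystem II. They were taken by locus, with earlier results of these data known, from tables of 27172 genes, and all 8 were in both tables. The locus table lists LHCB1.3, LHCB1.1 and LHCB1.2 as CAB1, CAB2 and CAB3, and LHCB1.4 and LHCB1.5 as LHB1B1 and LHB1B2. LHCB1.1, LHCB1.2 and LHCB1.3 are neighbours on chromosome 1, LHCB1.4 and LHCB1.5 are neighbours on chromosome 2, LHCB2.1 and LHCB2.2 are neighbours elsewhere on chromosome 2, and LHCB2.3 is on chromosome 3.

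The study measured mRNA by RNA-seq and ribosome-protected fragments (footprints) by ribosome profiling in infiltrated leaves. The infiltrate was 10 µM elf18, which comes from the start of bacterial EF-Tu and is sensed by the plant receptor EFR, or 10 mM MgCl2 as mock. All plants were of ecotype Col-0 and carried the reporter transgene 35S:uORFsTBF1-LUC, mock plants included, and were 3 weeks old when treated, on soil at 22 °C with 12 h of light a day. Each treatment has 2 libraries per assay, and the RNA and footprint library of a given number come from the same lysate. A lysate was made from about 24 plants with 2 leaves taken per plant, so errors and p-values measure the spread between such pools. How long after infiltration the leaves were taken is not given in the sources used here.

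LHCB1 and LHCB2 are chlorophyll a/b-binding proteins of the thylakoid membrane. They form the trimers of light-harvesting complex II, which capture light and pass the energy to the reaction centre, and together they bind a large part of the chlorophyll of a leaf. The genes are nuclear, are read mainly in green mesophyll cells under light and clock control, and the proteins are made on cytosolic ribosomes, imported into the chloroplast, delivered to the thylakoid by the chloroplast signal recognition particle and inserted with chlorophyll bound. LHCB1 and LHCB2 are also the proteins phosphorylated by the kinase STN7 in state transitions, in which antenna is shared out between the photosystems. Copies within each family encode nearly the same protein. How reads that match several copies were counted is not given in the sources used here, so each value of a single copy is uncertain, and sums over the 5 LHCB1 and the 3 LHCB2 genes are given beside them.

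RNA libraries held 7898180 to 15405467 counts over exons and 6407027 to 12832674 over coding sequences, and footprint libraries held 4752563 to 6717946 over coding sequences. Mock RNA libraries had a coding-sequence count in 16540 and 16767 genes, and elf18 RNA libraries in 13791 and 13493. Pearson's r between the 2 replicates was 0.868 in mock and 0.712 in elf18 for RNA, and 0.797 and 0.790 for footprints, computed on log2 CPM (counts scaled to the library total) across 16177 genes, which are not independent of each other. The tissue label was borne out by its markers. All 4 mesophyll markers (RBCS1A, RCA, CA1 and PSBO1) were detected, with a summed level of 44736 to 53575 CPM in RNA and 28419 to 37997 CPM in footprints, against 14.3 to 75.3 CPM for 5 guard cell markers, 41.3 to 102 CPM for 4 epidermis and trichome markers and 423 to 626 CPM for 5 vascular markers. The 2 seed storage markers were at 0, other than CRA1 in 1 elf18 footprint library (2.66 CPM).

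The 8 genes together made up a large part of the leaf mRNA. Of all exon counts they took 6.21% and 5.77% in the mock RNA libraries and 5.10% and 5.89% in the elf18 RNA libraries. The 5 LHCB1 genes accounted for 5.20% and 4.85% in mock and 4.3% and 5.11% in elf18. The 3 LHCB2 genes accounted for 1.01% and 0.917% in mock and 0.802% and 0.772% in elf18. LHCB1 overlapped between the treatments, its second elf18 library lying between the mock libraries, whereas both elf18 libraries were below both mock libraries for LHCB2. These values are shares of a library, and in whole leaves fewer cells of a type and less RNA per cell cannot be told apart.

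Much of the RNA signal of 7 of the 8 genes lay outside the annotated coding sequence. Coding-sequence counts were subtracted from exon counts of the same library, and the remainder was taken as a percentage of the exon count. That percentage was 74.5 to 76.6 for LHCB1.1, 73.6 to 77.3 for LHCB1.2 and 79.6 to 80.8 for LHCB1.3 across the 4 RNA libraries. It was lower for the pair on chromosome 2, at 29.9 to 34.5 for LHCB1.4 and 39.6 to 44.3 for LHCB1.5. LHCB2.1 and LHCB2.2 were alike, at 56.6 to 64.0 and 56.1 to 63.8, and LHCB2.3 stood lowest, at 11.6 to 15.5. The median of the 14359 genes with at least 100 exon counts was 12.1%, and 1.66% of them exceeded 70%, which the 3 neighbours on chromosome 1 did in every library. Mock and elf18 libraries overlapped for LHCB1.1 (75.8 ± 0.744 in mock, 75.6 ± 1.5 in elf18, SD, n = 2) and for the LHCB1 sum (65.8 ± 0.735 and 65.5 ± 0.445, SD, n = 2). Without overlap, elf18 libraries were lower for LHCB1.2, LHCB1.3 and LHCB2.3 and higher for LHCB1.4 (30.1 ± 0.258 in mock, 33.2 ± 1.87 in elf18, SD, n = 2), which was not tested. Over all genes together the percentage was also lower in elf18 without overlap. It was 18.8 in both mock libraries and 18.0 and 16.7 in the elf18 libraries. How many single genes lacked overlap in this percentage was not counted. In exon CPM, 34.1% of the 15870 genes tested were lower and 14.6% higher in elf18 without overlap. The make-up of the LHCB1 family differed between the tables: LHCB1.1 to LHCB1.3 made 67.9% to 69.4% of its exon counts and 42.3% to 44.7% of its coding-sequence counts. No sequence or coding length was used here, so untranslated regions were not measured, and whether the handling of reads that match several copies takes part was not tested.

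**Figure D1:**
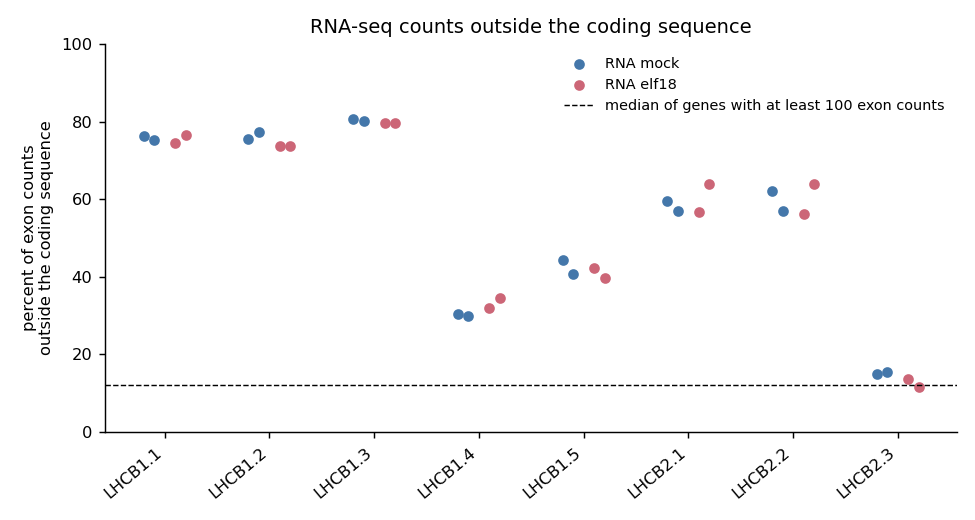
Percentage of exon counts that lie outside the coding sequence (y axis, percent) for each of the 8 genes (x axis), with 1 point per RNA library, coloured by treatment; the dashed line is the median of genes with at least 100 exon counts, 12.1%. LHCB1.1 to LHCB1.3 lie between 73.6% and 80.8% in every library, while LHCB2.3 lies between 11.6% and 15.5%.

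The first comparison asked whether elf18 changed the mRNA of the antenna genes, and none of the 8 passed the test. In exon counts LHCB1.3 had 20704 and 19844 CPM in mock and 17047 and 20533 CPM in elf18, and LHCB1.5 had 11452 and 10504 CPM in mock and 9748 and 11030 CPM in elf18. Both overlapped between treatments, as did LHCB1.1 (9498 and 8590 CPM in mock, 7820 and 10142 CPM in elf18) and LHCB1.2 (5100 and 4571 CPM in mock, 4380 and 4816 CPM in elf18). The first elf18 library was the lowest of the 4 for each of these genes, and the second elf18 library was near the mock libraries.

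LHCB1.4 and the LHCB2 genes did not overlap. LHCB1.4 had 5244 and 4976 CPM in mock and 4024 and 4618 CPM in elf18. LHCB2.1 had 4114 and 3713 CPM in mock and 3198 and 3178 CPM in elf18. LHCB2.2 had 2926 and 2778 CPM in mock and 2374 and 2128 CPM in elf18, and LHCB2.3 had 3018 and 2676 CPM in mock and 2443 and 2415 CPM in elf18. Both elf18 libraries of these 4 genes were thus below both mock libraries, as they were for 34.1% of the 15870 genes tested, while 14.6% lay above.

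By edgeR's quasi-likelihood test on exon counts, 0 of 8 genes were called at a Benjamini-Hochberg adjusted p below 0.05, beside 3.2% of the 15870 genes tested (3.04% higher and 0.158% lower). None reached an unadjusted p of 0.05 either, and DESeq2 and limma voom also called 0 of the 8. LHCB2.2 came nearest, at a log2 fold change of -0.19 ± 0.08 (SE, n = 2 against 2, adjusted p = 0.319). The LHCB1 sum had a log2 fold change of 0.06 ± 0.10 (adjusted p = 0.947) and the LHCB2 sum of -0.14 ± 0.07 (adjusted p = 0.439). The median log2 fold change was -0.02 over the 8 genes and -0.09 over all genes tested.

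Coding-sequence counts of the same RNA libraries gave the same picture. The LHCB1 sum was 21570 and 20746 CPM in mock and 18284 and 21016 CPM in elf18 (log2 fold change 0.04 ± 0.09, adjusted p = 0.967). The LHCB2 sum was 6574 and 6226 CPM in mock and 5537 and 4863 CPM in elf18 (log2 fold change -0.16 ± 0.08, adjusted p = 0.477). Members ranged from -0.25 ± 0.11 for LHCB2.1 to 0.21 ± 0.12 for LHCB1.2, and 0 of 8 were called beside 2.71% of the 15441 genes tested (2.59% higher and 0.117% lower). LHCB1.4 and the 3 LHCB2 genes again lay lower in both elf18 libraries, as did 34.4% of genes tested, while 14.4% lay higher. The sign of the LHCB1 values rests on the scaling between libraries: with library totals alone, which move the median of all genes by -0.15 on the log2 scale, the LHCB1 sum was -0.095 in exon counts and -0.11 in coding-sequence counts. It rests also on the second elf18 library, without which the exon value was -0.10. Without the first elf18 library it was 0.20, so the sum took opposite signs. In exon counts LHCB1.3 was 0.20 without the first elf18 library and -0.13 without the second. LHCB1.1 (0.34 and -0.090), LHCB1.2 (0.17 and -0.023), LHCB1.4 (0.031 and -0.23) and LHCB1.5 (0.18 and -0.052) also changed sign. LHCB2.2 was -0.25 in exon counts without the first. LHCB2.1 was -0.17 in exon counts without the second and -0.38 in coding-sequence counts without the first. The LHCB2 exon sum was -0.14 in both cases, and its coding-sequence sum was -0.23 without the first. These runs leave 1 library in the elf18 group, so only effect sizes are given.

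**Figure D2:**
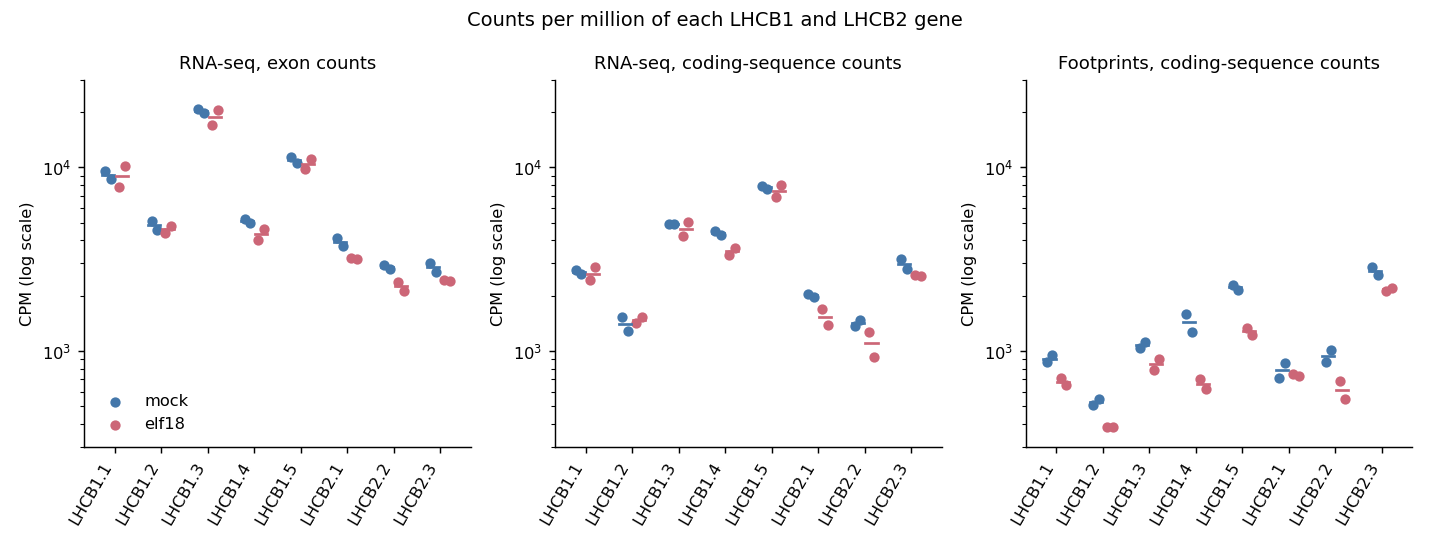
CPM of each of the 8 genes (y axis, log scale) in the RNA exon, RNA coding-sequence and footprint counts, 1 point per library coloured by treatment, with a bar at each group mean. In footprints the elf18 points of LHCB1.4 (699 and 622 CPM) lie well below its mock points (1595 and 1263 CPM), while those of LHCB2.1 lie among its mock points.

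Footprints, the measure of ribosomes on the coding sequence, fell with elf18 for LHCB1.4 and LHCB1.5. LHCB1.4 had 1595 and 1263 footprint CPM in mock and 699 and 622 in elf18. The edgeR fit, which also scales between libraries, gave a fall to 0.492 of mock (log2 fold change -1.02 ± 0.16, adjusted p = 0.0021). LHCB1.5 had 2275 and 2155 footprint CPM in mock and 1331 and 1224 in elf18. Its fitted fall was to 0.615 of mock (log2 fold change -0.70 ± 0.11, adjusted p = 0.00368). In each of these genes both elf18 libraries were far below both mock libraries. Leaving out 1 library gave log2 fold changes of -1.20 to -0.81 for LHCB1.4 and -0.76 to -0.61 for LHCB1.5. These runs leave 1 library in a group, so only effect sizes are given.

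The 3 LHCB1 neighbours on chromosome 1 had smaller footprint differences that did not pass edgeR's test. LHCB1.1 had 865 and 945 footprint CPM in mock and 709 and 650 in elf18 (log2 fold change -0.32 ± 0.14, adjusted p = 0.552). LHCB1.2 had 507 and 545 footprint CPM in mock and 382 and 385 in elf18 (-0.36 ± 0.16, adjusted p = 0.570). LHCB1.3 had 1039 and 1122 footprint CPM in mock and 788 and 902 in elf18 (-0.26 ± 0.14, adjusted p = 0.730). All 3 were lower in both elf18 libraries than in both mock libraries. DESeq2 called LHCB1.1 (-0.30, adjusted p = 0.030) and LHCB1.2 (-0.35, adjusted p = 0.0313) lower, but not LHCB1.3.

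Summed, LHCB1 took 0.628% and 0.603% of footprints in mock and 0.391% and 0.378% in elf18. The fit, which also scales between libraries, gave a fall to 0.666 of mock (log2 fold change -0.59 ± 0.08, adjusted p = 0.00152). The LHCB1 sum was called in all 7 alternatives that keep every library, at log2 fold changes from -0.68 to -0.55. Leaving out 1 library gave -0.64 to -0.53. Mock and elf18 libraries of the sum were each close together and far from the other group.

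Among LHCB2 genes, 0 of 3 were called by edgeR. LHCB2.2 had 870 and 1006 footprint CPM in mock and 683 and 547 in elf18 (log2 fold change -0.51 ± 0.16, adjusted p = 0.163), though DESeq2 called it (-0.50, adjusted p = 0.00254). LHCB2.3 had 2862 and 2591 footprint CPM in mock and 2132 and 2206 in elf18 (-0.24 ± 0.11, adjusted p = 0.589). Both genes were called by limma voom, LHCB2.2 at -0.52 (adjusted p = 0.000749) and LHCB2.3 at -0.21 (adjusted p = 0.0124). LHCB2.1 had 716 and 858 footprint CPM in mock and 752 and 733 in elf18 (0.01 ± 0.14, adjusted p = 1.0), and was the single member whose treatments overlapped; its sign turned with library totals alone (-0.086). The LHCB2 sum was 4448 and 4454 CPM in mock and 3566 and 3486 CPM in elf18, with a log2 fold change of -0.24 ± 0.09 that missed the threshold (adjusted p = 0.306), though DESeq2 (adjusted p = 0.0465) and limma voom (adjusted p = 7.58e-07) called it.

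Over the family, 2 of 8 members were called lower and 0 higher, beside 2.76% of the 14446 genes tested (2.59% higher and 0.166% lower). Both elf18 libraries were below both mock libraries for 7 of 8 members, against 24% of genes tested, with 16.3% above. The median log2 fold change was -0.34 over the 8 members and 0.01 over all genes tested. Mesophyll markers moved with these footprints: all 4 had log2 fold changes below 0, and RBCS1A (-0.50 ± 0.07, adjusted p = 0.00145) and PSBO1 (-0.36 ± 0.08, adjusted p = 0.0408), themselves photosynthesis genes, were called lower. The summed mesophyll level was 36849 to 37997 footprint CPM in mock and 28419 to 29341 in elf18, and the part of these cells in the antenna result was not tested. Guard cell markers had summed footprint levels of 57.0 to 75.3 CPM in mock and 39.3 to 43.4 CPM in elf18, and epidermis and trichome markers of 88.2 to 102 and 41.3 to 85.1 CPM, without overlap and with no gene of either list called. Vascular markers overlapped in footprints (432 to 547 and 423 to 512 CPM) and lay higher in elf18 RNA (428 to 483 CPM in mock, 522 to 626 CPM in elf18), with 0 of 5 called; the part of these cell types was not tested either. In RNA the mesophyll markers had 52788 to 53575 CPM in mock and 44736 to 50330 CPM in elf18, with 0 of 4 called in exon or coding-sequence counts.

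**Figure D3:**
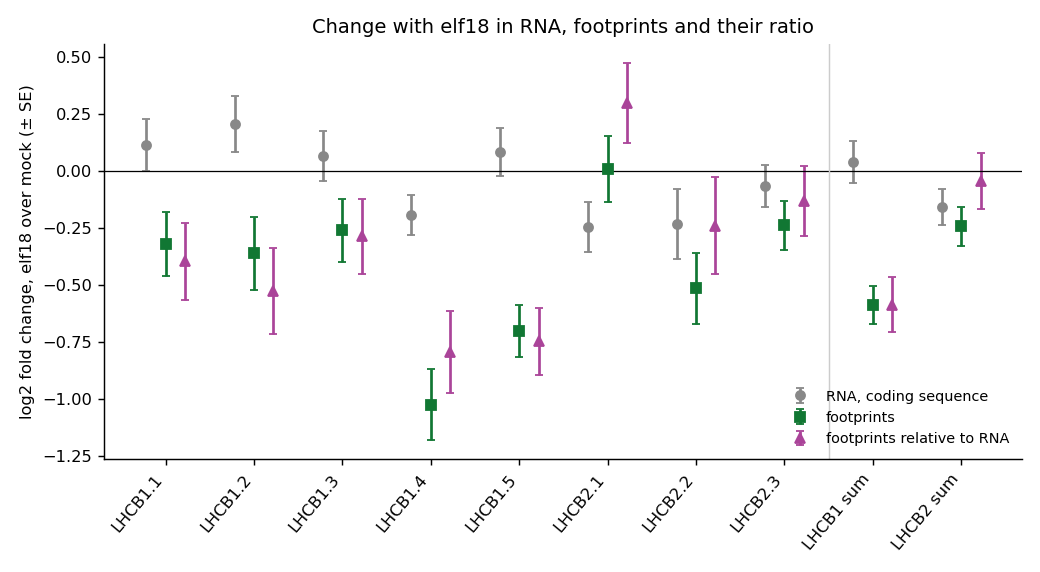
Log2 fold change of elf18 over mock with its standard error (y axis) for the 8 genes and both sums (x axis), in RNA coding-sequence counts, in footprints and in the footprint-to-RNA ratio (translational efficiency). Among footprint values those of LHCB1.4 (-1.02) and LHCB1.5 (-0.70) lie lowest, and RNA values lie between -0.25 and 0.21.

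Translational efficiency, the footprint CPM over the coding-sequence RNA CPM of the same lysate, was lower with elf18 in 7 of 8 genes. In these 7 both elf18 lysates lay below both mock lysates, as in 11.1% of the 16177 genes tested, with 19.6% above. The ratio of the LHCB1 sum was 0.291 in both mock lysates and 0.214 and 0.180 in the elf18 lysates. For LHCB1.4 it was 0.354 and 0.294 in mock and 0.209 and 0.171 in elf18, and for LHCB1.5 it was 0.289 and 0.281 in mock and 0.194 and 0.153 in elf18. The mock and elf18 lysates did not overlap for either gene or for the sum.

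The LHCB2 sum overlapped between treatments, at 0.677 and 0.715 in mock and 0.644 and 0.717 in elf18. LHCB2.1 differed the other way, with 0.350 and 0.436 in mock and 0.444 and 0.533 in elf18. It was the single member whose elf18 lysates both lay above the mock lysates, as 19.6% of the 16177 genes tested did, while 11.1% lay below. LHCB2.3 was 0.906 and 0.929 in mock and 0.828 and 0.860 in elf18, a small difference without overlap.

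In a fit of assay, treatment and their interaction, edgeR's quasi-likelihood test called 0 of 8 members and 0 of 16177 genes (0%), with 725 genes at an unadjusted p below 0.05; DESeq2 called 70 genes and limma voom 2. The LHCB1 sum had an interaction log2 value of -0.58 ± 0.12 (unadjusted p = 0.00019, adjusted p = 1.0). LHCB1.4 had -0.79 ± 0.18 and LHCB1.5 -0.75 ± 0.15 (adjusted p = 1.0 and 0.893). The remaining members ranged from -0.53 ± 0.19 for LHCB1.2 to 0.30 ± 0.17 for LHCB2.1, and the LHCB2 sum was at -0.04 ± 0.12. The median was -0.34 over the members and 0.16 over all genes.

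Because RNA and footprint libraries share a lysate, the fit was repeated with the lysate as a block. The fit with the block called 6 genes of the whole table, 2 of them members. The LHCB1 sum was then at -0.58 ± 0.12 (adjusted p = 0.0156), LHCB1.4 at -0.78 ± 0.17 (adjusted p = 0.0139) and LHCB1.5 at -0.74 ± 0.15 (adjusted p = 0.00467). The other 6 members and the LHCB2 sum were not called with the block. Standard errors without and with the block were 0.122 and 0.125 for the LHCB1 sum and 0.147 and 0.150 for LHCB1.5. For LHCB1.4 they were 0.180 and 0.169. Deviations from the group means were nearly uncorrelated between paired libraries over 16177 genes (r = -0.00866 in mock and -0.000293 in elf18). Why the block added calls was not tested. DESeq2 without the block also called the LHCB1 sum (-0.66, adjusted p = 0.0205), LHCB1.4 (-0.88, adjusted p = 0.00488) and LHCB1.5 (-0.82, adjusted p = 0.000652), whereas limma voom called no member.

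The share of each copy in its family's footprints was also compared between treatments, and no share passed its test. LHCB1.4 made 25.4% and 20.9% of LHCB1 footprints in mock and 17.9% and 16.4% in elf18. LHCB1.1 to LHCB1.3 together made 38.4% and 43.3% in mock and 48.1% and 51.2% in elf18. LHCB1.5 made 36.2% and 35.7% in mock and 34.0% and 32.4% in elf18. None of these shares overlapped between treatments, and the widest 95% Wilson interval of a coding-sequence share was 1.39 percentage points, which covers counting error only.

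In coding-sequence RNA counts the same shares differed less or the other way. LHCB1.4 made 20.9% and 20.7% of LHCB1 RNA in mock and 18.3% and 17.3% in elf18, and LHCB1.1 to LHCB1.3 made 42.7% and 42.3% in mock and 44.2% and 44.7% in elf18. LHCB1.5 made 36.4% and 36.9% in mock and 37.5% and 38.1% in elf18. With 2 libraries against 2, an exact two-sided permutation test cannot go below p = 0.333, which each of these shares reached, and 10 shares were tested per kind of count (adjusted p = 0.370 in footprints and 0.556 in coding-sequence RNA).

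The balance between the families was compared in the same way. LHCB1 made 58.5% and 57.5% of LHCB1 plus LHCB2 footprints in mock and 52.3% and 52.0% in elf18, a difference of -5.86 percentage points (exact permutation p = 0.333, the smallest possible). In coding-sequence RNA it made 76.6% and 76.9% in mock and 76.8% and 81.2% in elf18, which overlapped. Within LHCB2, LHCB2.1 made 16.1% and 19.3% of footprints in mock and 21.1% and 21.0% in elf18, LHCB2.2 made 19.6% and 22.6% in mock and 19.1% and 15.7% in elf18, and LHCB2.3 made 58.2% to 64.4% in all 4 libraries with overlap between treatments.

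**Figure D4:**
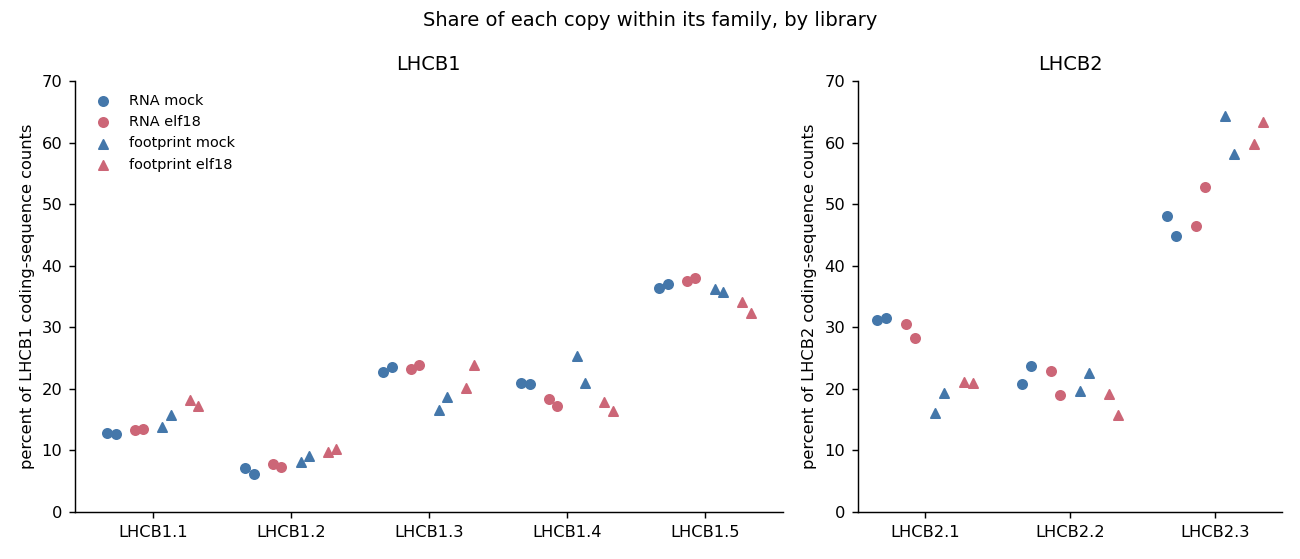
Share of each copy in its family's coding-sequence counts (y axis, percent, not corrected for length) by library, for LHCB1 (left) and LHCB2 (right); circles are RNA and triangles footprints, blue is mock and red elf18. LHCB1.4 has 25.4% and 20.9% of LHCB1 footprints in mock and 17.9% and 16.4% in elf18, and LHCB2.3 holds 58.2% to 64.4% of LHCB2 footprints against 44.8% to 52.7% of LHCB2 RNA.

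A further comparison set footprints against RNA of the same coding sequences within each treatment, on shares of each library. In mock, LHCB1 took 2.16% and 2.07% of RNA counts and 0.628% and 0.603% of footprints, a mean ratio of 0.291. The edgeR fit, which also scales between libraries, gave 0.264 (log2 ratio -1.92 ± 0.09, adjusted p = 3.78e-09). LHCB2 took 0.657% and 0.623% of RNA and 0.445% of footprints in both libraries, a mean ratio of 0.696. Its fitted ratio was 0.630 (-0.67 ± 0.09, adjusted p = 0.000245). In all 4 lysates the footprint share of LHCB1 was well below its RNA share.

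By member, 7 of 8 were called lower in footprints than in RNA in mock, beside 3.42% of the 16177 genes tested (1.56% higher and 1.87% lower). LHCB1.3 had the lowest log2 ratio at -2.32 ± 0.12, then LHCB1.5 at -1.95 ± 0.11, LHCB1.4 at -1.76 ± 0.13, LHCB1.1 at -1.72 ± 0.12, LHCB1.2 at -1.56 ± 0.14 and LHCB2.1 at -1.49 ± 0.13. From LHCB1.5 to LHCB2.1, each gene differed from the next in this order by less than the sum of their standard errors. LHCB2.2 was at -0.74 ± 0.15 (adjusted p = 0.00824), and at -0.64 without the first mock footprint library. LHCB2.3 was at -0.27 ± 0.11, not called (adjusted p = 0.313). Both footprint libraries lay below both RNA libraries in CPM for 7 of 8 members, all but LHCB2.3, as for 22.4% of genes tested, with 25.4% above.

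In elf18 all 8 members were called lower, beside 5.63% of genes tested (2.95% higher and 2.68% lower), and all 8 lay lower in both libraries, as did 16.4% of genes tested, with 28.5% above. The LHCB1 sum was at -2.51 ± 0.09 (0.176 times, adjusted p = 8.04e-11) and the LHCB2 sum at -0.71 ± 0.09 (0.611 times, adjusted p = 7.99e-05). Members ran from -2.70 ± 0.11 for LHCB1.5 to -0.40 ± 0.11 for LHCB2.3 (adjusted p = 0.0416). The LHCB2.3 call was lost with library totals alone (-0.24, adjusted p = 0.193). Its value was -0.36 without the second elf18 RNA library. Without the first or the second elf18 footprint library it was -0.44 in each case. Median log2 ratios over the members were -1.64 in mock and -2.10 in elf18, against -0.14 and 0.07 over all genes. Whether reads that match several copies were lost unequally from RNA and footprint libraries was not tested.

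Within LHCB2, the members differed in how far footprints fell short of RNA. Paired over the 4 lysates, LHCB2.3 had 48.0% of LHCB2 RNA and 61.4% of LHCB2 footprints, a gain of 13.4 percentage points (SD 2.35, higher in 4 of 4 lysates). LHCB2.1 had 30.4% of RNA and 19.4% of footprints, a change of -11.0 points (SD 3.39, lower in 4 of 4). LHCB1 made 77.9% of LHCB1 plus LHCB2 RNA and 55.1% of their footprints, a change of -22.8 points (SD 5.06, lower in 4 of 4). The exact paired permutation test gave p = 0.125 for each, the smallest that 4 pairs allow (adjusted p = 0.156 over 10 shares).

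Other genes of light harvesting were described from 8 lists with 66 genes, chosen by function. The minor antenna list of photosystem II holds 7 genes, among them LHCB3, a partner of LHCB1 and LHCB2 in trimers, and LHCB4 to LHCB6, which link trimers to the core. Their RNA was not called with elf18 (0 of 7 in exon counts, median log2 fold change 0.02; 0 of 7 in coding-sequence counts). In footprints 2 of 7 were called lower and all 7 log2 values were below 0, with a median of -0.46. LHCB6 had 5806 and 5217 footprint CPM in mock and 3701 and 3661 in elf18 (log2 fold change -0.49 ± 0.09, adjusted p = 0.0115). LHCB3 had 4056 and 3761 footprint CPM in mock and 2877 and 2470 in elf18 (-0.46 ± 0.11, adjusted p = 0.0413). Without the second elf18 footprint library the values were -0.45 for LHCB6 and -0.32 for LHCB3. The LHCB3 call was lost with DESeq2's size factors in edgeR (adjusted p = 0.0762). The RNA value with the smallest p in this list was that of LHCB4.2, at -0.27 ± 0.08 in exon counts (adjusted p = 0.145).

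The 6 antenna genes of photosystem I, LHCA1 to LHCA6, had 0 of 6 called in RNA exon counts (median -0.04), in RNA coding-sequence counts (median -0.04) and in footprints (median -0.21, all 6 below 0). LHCA1 had the smallest footprint p, at -0.33 ± 0.10 (adjusted p = 0.184). The smallest RNA p was that of LHCA5 in exon counts (0.29 ± 0.14, adjusted p = 0.441) and of LHCA4 in coding-sequence counts (-0.12 ± 0.06, adjusted p = 0.518). In translational efficiency 0 genes of either antenna list were called, with medians of -0.42 for the minor antenna and -0.16 for photosystem I. The smallest p there belonged to LHCB6 (-0.48 ± 0.15) and LHCA3 (-0.27 ± 0.15), each at an adjusted p of 1.0.

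**Figure D5:**
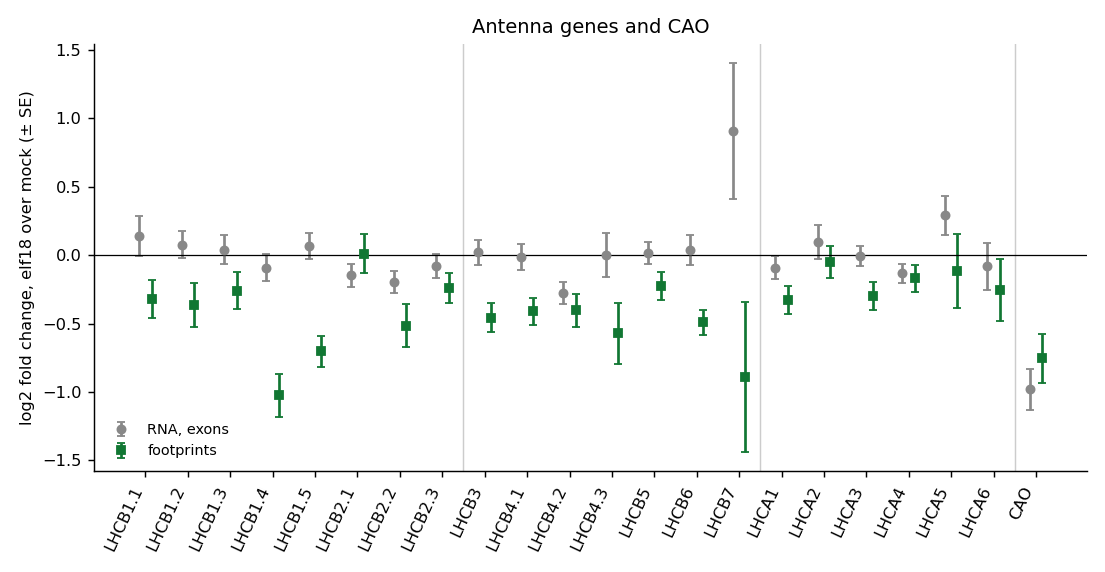
Log2 fold change of elf18 over mock with its standard error (y axis) in RNA exon counts and in footprints, for the 8 LHCB1 and LHCB2 genes, the minor photosystem II antenna, photosystem I antenna and CAO (x axis). RNA values of most antenna genes lie near 0, while footprint values lie below it for all but LHCB2.1 (0.01). CAO is low in both, at -0.98 in RNA and -0.75 in footprints.

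Of 16 chlorophyll synthesis genes, CAO alone was called in RNA. CAO makes chlorophyll b, the pigment bound by LHCB proteins and not by the reaction centres. It had 365 and 360 CPM in mock and 188 and 144 CPM in elf18 in exon counts. Its fitted fall was to 0.507 of mock (log2 fold change -0.98 ± 0.15, adjusted p = 0.0282). CAO was called in all 6 alternatives on exon counts that keep every library, and leaving out 1 library gave -1.15 to -0.83. In coding-sequence counts it was at -0.94 ± 0.17 (adjusted p = 0.0659). Its footprints went from 477 and 434 CPM in mock to 263 and 244 CPM in elf18, at -0.75 ± 0.18. That was just short of the threshold (adjusted p = 0.05001), but CAO footprints were called in 6 of the 7 alternatives that keep every library. The list had 14 of 16 RNA exon values below 0 (median -0.20) and 11 of 16 footprint values below 0 (median -0.15), where 55.1% of all genes tested were below 0 in exon counts and 49.3% in footprints. In translational efficiency 0 of 16 were called (median 0.17), with the smallest p for DVR (0.76 ± 0.48).

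The other 5 lists had no member called between mock and elf18 in RNA, footprints or translational efficiency. Of 5 genes that deliver and insert the proteins, CPSRP43, the subunit of the chloroplast signal recognition particle that binds LHCB proteins, was at -0.48 ± 0.13 in exon counts (adjusted p = 0.145) and at -0.35 ± 0.13 in coding-sequence counts (adjusted p = 0.249). ALB3, the thylakoid insertase, was at -0.44 ± 0.18 in footprints (adjusted p = 0.473) and at -0.43 ± 0.29 in translational efficiency. Of 4 genes for the phosphorylation of thylakoid proteins, the kinase gene STN8 was at 0.18 ± 0.17 in exon counts. It was at -0.59 ± 0.28 in footprints and -0.70 ± 0.35 in translational efficiency. The phosphatase gene PBCP was at -0.26 ± 0.34 in coding-sequence counts. Of 7 LHC-like genes, OHP1 was at -0.45 ± 0.17 in exon counts, -0.62 ± 0.16 in coding-sequence counts and 0.99 ± 0.39 in translational efficiency, and OHP2 at -0.30 ± 0.24 in footprints.

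Chlorophyll b reduction and breakdown had 4 of 5 genes tested. NYC1, a chlorophyll b reductase gene, was at -0.65 ± 0.42 in exon counts, -0.89 ± 0.47 in coding-sequence counts and 1.45 ± 0.69 in translational efficiency, and SGR1, a chlorophyll breakdown gene, at 1.4 ± 0.70 in footprints (adjusted p = 0.684). Of 16 regulators of light-harvesting genes, 13 had RNA exon values below 0 (median -0.23), beside 55.1% of all genes tested (median -0.09), and 0 were called. The one with the smallest RNA p was PIF5, a phytochrome-interacting factor, at -0.50 ± 0.20 in exon counts (adjusted p = 0.296) and -0.67 ± 0.22 in coding-sequence counts (adjusted p = 0.195), with 0.60 ± 0.32 in translational efficiency. CRY1, a blue-light receptor, was at -0.49 ± 0.20 in footprints (adjusted p = 0.492).

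Lower footprint than RNA shares were not limited to LHCB1 and LHCB2. In mock 4 of 7 minor antenna genes and 4 of 6 photosystem I antenna genes were called lower, and in elf18 5 of 7 and 5 of 6. LHCB4.1 was at -1.39 ± 0.10 in mock and -1.72 ± 0.10 in elf18, and LHCB3 at -1.24 ± 0.11 and -1.66 ± 0.11. LHCB5 (-0.68 ± 0.11) was the third of its list in mock and LHCB6 (-1.08 ± 0.11) in elf18. LHCA2 was at -1.57 ± 0.12 and -1.67 ± 0.12, LHCA4 at -0.99 ± 0.09 and -0.995 ± 0.09, and LHCA1 at -0.90 ± 0.10 and -1.10 ± 0.10. The log2 ratio of the LHCB1 sum lay below that of every gene of these antenna lists in both treatments, and that of the LHCB2 sum lay among them, with LHCB4.2 (-0.39 ± 0.13 in mock, -0.53 ± 0.13 in elf18) and LHCA3 (-0.40 ± 0.10 and -0.66 ± 0.10) above it. LHCB4.2 and LHCA3 were named after their values were seen, and these orders were not tested.

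Chlorophyll synthesis genes split in the same comparison. CHLM was at -1.10 ± 0.16 in mock and -1.27 ± 0.16 in elf18 and CRD1 at -0.66 ± 0.10 and -0.51 ± 0.10, both lower in footprints, whereas CHLH, a subunit of magnesium chelatase, was higher (0.52 ± 0.09 and 0.44 ± 0.09); these were the 3 of 16 called in each treatment. Of the LHC-like genes OHP1 (-1.403 ± 0.28), LIL3.1 (-1.59 ± 0.33) and LIL3.2 (-0.96 ± 0.23) were called lower in mock and LIL3.1 (-1.57 ± 0.33) in elf18. The phosphatase gene TAP38 was called lower in mock (-1.23 ± 0.32, adjusted p = 0.0452). That call held in 4 of the 6 alternatives that keep every library, and leaving out 1 library gave -1.84 to -0.80. CPSRP43 was called lower in elf18 (-0.73 ± 0.19, adjusted p = 0.0330), and in 5 of the 6 alternatives that keep every library. It was at -0.71 ± 0.19 in mock (adjusted p = 0.0556), and STN8 was at -0.83 ± 0.25 in elf18 (adjusted p = 0.0695). CRY1 was called higher in both (0.94 ± 0.24 and 0.97 ± 0.24). The phytochrome gene PHYA was called higher in elf18 (0.62 ± 0.17, adjusted p = 0.0460), and in 5 of the 6 alternatives that keep every library. NYC1 was at -0.44 ± 0.49 in mock and 1.01 ± 0.49 in elf18, not called in either.

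Genes were ranked by how like each family sum their profile was over the 8 coding-sequence libraries. The measure was the root mean square difference of log2 CPM centred on each gene's own mean, among the 1698 genes that averaged 100 CPM or more. These libraries cover both assays, so likeness takes in the footprint-to-RNA difference as well as the treatment. For the LHCB1 sum, fitted footprint-to-RNA log2 ratios were -1.92 in mock and -2.51 in elf18. Its elf18 changes were smaller, at 0.04 in coding-sequence RNA and -0.59 in footprints. The genes most like the LHCB1 sum were MT3 (0.12), PSBX (0.14), AT2G23120 (0.18), RBCS3B (0.21) and PSBW (0.22), where the median of the 1698 genes was 1.25. PSBX and PSBW are small subunits of photosystem II, RBCS3B is a Rubisco small subunit and MT3 a metallothionein. PSBX, for example, had 4244 and 4070 RNA CPM in mock, 3131 and 3823 in elf18, 1299 and 1083 footprint CPM in mock and 902 and 835 in elf18.

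For the LHCB2 sum they were PSBQA (0.05), AT5G44020 (0.08), AT1G18540 (0.08), CRD1 (0.09) and AT5G07020 (0.10), against a median of 0.58. PSBQA, a subunit of the oxygen-evolving complex, had 2025 and 1884 RNA CPM in mock, 1651 and 1599 in elf18, 1405 and 1338 footprint CPM in mock and 1163 and 1112 in elf18. The profiles of the 2 sums differed from each other by 0.78.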

How the data were processed

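RNA-seq and ribosome footprint counts of the 8 LHCB1 and LHCB2 genes were taken from 2 deposited tables: exon counts of the 4 RNA libraries, and coding-sequence counts of those and the 4 footprint libraries. The deposited values are raw read counts per gene, not normalised by the authors. Build TAIR10 and the programs Bowtie2 2.0, CASAVA 1.8.2 and HTSeq are named per the submitters' processing notes; strand setting, read lengths and the treatment of reads matching several places are not given in the sources used here. Footprint values were blank for 62 genes, none of them a member, and these stayed out of coding-sequence tests. Names came from the supplied locus table of assembly TAIR10.1, in which all 8 loci matched. Its start coordinates served only to find which members are neighbours, and sequences were not used here.

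edgeR 4.0.16 (R 4.3.3) was run on whole tables with TMM scaling, filterByExpr (minimum count 10), glmQLFit and glmQLFTest, with Benjamini-Hochberg adjustment over all genes tested and calls below 0.05. The design with both assays had 4 groups. Sums were fitted in a table with the copies replaced by their sum. CPM uses library totals, whereas fitted fold changes use TMM, so a gene can be lower in CPM and at a fold change near 0. Fits were tested on simulated counts. Alternatives were DESeq2 1.42.0, limma 3.58.1 voom, other scalings, no filter, a replicate block and leaving out each library. The sample IDs in the labels tie RNA and footprint libraries to lysates, so these are paired by design (correlation of their deviations from the group means over 16177 genes, -0.00866 in mock and -0.000293 in elf18); IDs of mock and elf18 lysates do not pair. The members and the gene lists were chosen with earlier results of these data known. Named genes are the members, up to 3 called genes per list and comparison by smallest p or else the gene with the smallest p, and the 5 genes most like each sum.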

Additional observations from a re-analysis of the deposited data

How the results depend on the processing

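All values are log2 fold changes of elf18 over mock unless named otherwise. The LHCB1 footprint sum was called in each of the 7 alternatives that keep every library. Both sums stayed called for footprints against RNA in each treatment in all 6 such alternatives. For the LHCB2 footprint sum, DESeq2 gave -0.23, limma voom -0.23 and library totals alone -0.34 (adjusted p = 0.0465, 7.58e-07 and 0.0493). Members called lower in footprints numbered 5 with DESeq2 and 4 with limma voom. Over all genes, these settings called 870 and 593 in either direction, against 398 in the main fit.

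With library totals alone, which move the median of all genes by -0.148 in exon and -0.144 in coding-sequence counts, the following LHCB1 RNA values changed sign. Exon values were -0.095 for the sum, -0.011 for LHCB1.1, -0.073 for LHCB1.2, -0.11 for LHCB1.3 and -0.080 for LHCB1.5. Coding-sequence values were -0.11 for the sum, -0.031 for LHCB1.1, -0.082 for LHCB1.3 and -0.064 for LHCB1.5. Footprints of LHCB2.1 changed sign with library totals (-0.086) and limma voom (-0.00417). The LHCB2 exon sum was called by limma voom (-0.18, adjusted p = 0.0423). The LHCB1.3 share of LHCB1 RNA differed by -0.48 percentage points in exon counts and by 0.388 in coding-sequence counts.

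In translational efficiency the LHCB1 sum was called with DESeq2 (-0.66), no filter on low counts (-0.62) and the replicate block by lysate (-0.58). Each called 2 members lower, where 70, 8 and 6 genes of the whole table were called in either direction. The LHCB2 sum was 0.020 with limma voom.

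Leaving out 1 library gave these ranges. The LHCB2 footprint sum ran from -0.27 to -0.19 and LHCB2.1 footprints from -0.087 to 0.12. In exon counts the LHCB1 sum ran from -0.10 to 0.20 and the LHCB2 sum from -0.22 to -0.073. LHCB1.1 ran from -0.090 to 0.34, LHCB1.2 from -0.023 to 0.17 and LHCB1.3 from -0.13 to 0.20. LHCB1.4 ran from -0.23 to 0.031, LHCB1.5 from -0.052 to 0.18 and LHCB2.3 from -0.17 to 0.0076. In coding-sequence RNA counts the LHCB1 sum ran from -0.092 to 0.16 and the LHCB2 sum from -0.23 to -0.091. There LHCB1.1 ran from -0.031 to 0.25 and LHCB1.3 from -0.089 to 0.20. LHCB1.5 ran from -0.059 to 0.21 and LHCB2.3 from -0.16 to 0.023 in the same counts. In translational efficiency the LHCB1 sum ran from -0.71 to -0.44 and the LHCB2 sum from -0.12 to 0.015, with 0 to 1 members called lower. A group left with 1 library was assumed to vary like the others. The cause of these differences was not tested.

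Genes called in the whole table numbered 508 in exon counts against 2628 with DESeq2 and 916 with a replicate block, 418 in coding-sequence RNA against 2625 and 836, and 398 in footprints against 870 and 678, and 636 with no filter. For footprints against RNA they numbered 554 in mock and 910 in elf18, against 1436 and 2321 with DESeq2. The mock and elf18 libraries share only a number, so this block of RNA or footprints alone is no pairing; with it 3 members were called lower in footprints.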
